A study of Mus musculus with 12 samples.

Results

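The STAT transcription factors and the SOCS-family inhibitors of cytokine signaling were examined in follicular helper T (Tfh) cells that differed in their *Bcl6* genotype. The 9 genes, *Stat3*, *Stat4*, *Stat5a*, *Stat5b*, *Stat6*, *Socs1*, *Socs2*, *Socs3* and *Cish*, were taken by symbol from the 24561 genes of the deposited count table. Of these, 8 passed the expression filter and were tested among 12719 genes, and *Socs2* had no count in any library.

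The cells were OT-II T cells, which carry a transgenic receptor for an ovalbumin peptide, on the C57BL/6 background. Donor T cells were CD4-Cre, labelled WT and called wild-type here, or CD4-CrexBcl6fl/+, labelled HET and called BCL6-insufficient here. Both genotypes therefore carried Cre under *Cd4* control, which acts in T cells, and the HET donors also carried a single floxed *Bcl6* allele that Cre can delete. The donor cells were placed in SAP-deficient CD45.1 recipients, whose own T cells give poor help to B cells, and the recipients were immunized with NP-OVA and LPS in alum. CXCR5hiPD-1hi TFH cells were sorted from draining lymph nodes on day 3, and the ages of the animals are not in the labels used here. There were 3 recipients per genotype and 2 technical repeats of about 200 cells per recipient, which gave 12 SMART-Seq2 libraries. Recipients are the replicates, and because the number of donors for this transfer is not named, the p-values measure the spread between recipients only.

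A cytokine receptor brings Janus kinases (JAKs) together, the kinases phosphorylate STAT proteins, and STAT dimers enter the nucleus and switch on target genes. Among these targets are the SOCS proteins and CIS, the product of *Cish*, which bind the activated receptor or kinase and damp the signal that induced them. In Tfh cells, interleukin 6 (IL-6) and IL-21 act through STAT3, IL-12 through STAT4 and IL-4 through STAT6, whereas IL-2 acts through STAT5A and STAT5B and is known to oppose the Tfh program. RNA levels of these genes do not report phosphorylation, the step at which STAT proteins are switched on.

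Library totals ran from 3343375 to 8315722 counts with the BCL6-insufficient label and from 5240715 to 7266106 with the wild-type label. The targeted gene, *Bcl6*, had 150, 146.2 and 150 normalized CPM (counts made comparable between libraries) in BCL6-insufficient mice 1 to 3 and 54.8, 75.6 and 56.9 CPM in wild-type mice 1 to 3. Its log2 fold change was 1.25 (SE 0.12, Benjamini-Hochberg adjusted p = 6.3e-07 in edgeR's quasi-likelihood test), so the label with fewer intact alleles had more transcript. Counts over the whole gene do not tell a deleted allele from an intact one, and every direction in the text rests on the labels. Over all genes, edgeR's test called 2288 genes at the threshold of 0.05 for the adjusted p, which is 18% of those tested, with 9.17% higher and 8.82% lower in the BCL6-insufficient mice. Without wild-type mouse 3 the number was 1424. The summed CPM of 10 T cell markers was 10400 to 11600 in the BCL6-insufficient mice and 7930 to 9570 in the wild-type mice, most of it *Trac*, which had 6620 to 7310 and 4030 to 5250 CPM. Of these 10 markers edgeR's test called 2 higher and 4 lower. The 9 Tfh markers summed to 2540 to 2610 and 2790 to 2850 CPM, with 2 called higher (*Icos* and *Maf*) and 4 called lower (*Tox2*, *Pdcd1*, *Cxcr5* and *Tcf7*). The 12 B cell markers summed to 519 to 715 CPM and 611 to 852 CPM, most of it *Ighm*. The 10 myeloid and dendritic cell markers in the table summed to 13.2 to 26.8 CPM and 6.68 to 11.7 CPM, with *Cd14* at 0. The part of these differences in the results below was not tested, and in sorted populations fewer cells of a type and less RNA per cell cannot be told apart.

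The promoters of the genes were read first, because a STAT dimer recognizes a short palindrome and the inhibitors are known STAT targets. RefSeq promoter windows of GRCm38.p6, from 250 bases before to 50 bases after a transcript start, were found for 8 of the 9 genes, in 11 windows. The element TTCNNNGAA, which reads the same on both strands, was in the windows of *Cish* and *Socs3* and in no window of *Stat3*, *Stat4*, *Stat5a*, *Stat5b*, *Stat6* or *Socs1*. The window of *Cish* held it at 2 places, which 0.457% of all 32851 windows do, and that of *Socs3* held it once, as 8.3% of all windows do at least once. The wider element TTCNNNNGAA, associated with STAT6, was in none of the 11 windows and in 6.95% of all windows. The stretches that hold the element are shown so that its place can be seen, with the element in capitals. They are *Cish* at chr9:107296654-107296683 on the plus strand, with the elements starting at bases 1 and 12 of the transcript, and *Socs3* at chr11:117969477-117969555 on the minus strand, with the element starting at base -154 from the transcript start. The second window of *Bcl6*, which is itself no STAT or SOCS gene, is shown beside them at chr16:23981328-23981486 on the minus strand, because its 3 elements place it among 11 of all windows, or 0.0335%. It was thus picked for its count. The first window of *Bcl6* held 1 element, as 8.3% of all windows do at least once, and is not shown.

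Cish: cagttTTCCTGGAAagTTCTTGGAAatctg

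Socs3: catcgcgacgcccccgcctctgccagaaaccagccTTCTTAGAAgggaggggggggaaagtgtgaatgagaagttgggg

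Bcl6: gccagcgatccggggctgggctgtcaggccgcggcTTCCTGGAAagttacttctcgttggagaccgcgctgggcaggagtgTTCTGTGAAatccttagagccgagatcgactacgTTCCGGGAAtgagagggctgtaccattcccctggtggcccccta

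A match describes the letters in these windows and says nothing of whether a STAT protein was bound there in these cells.

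Levels were compared between genes as CPM per kilobase of summed exon, since a longer transcript collects more reads. In the wild-type mice *Stat6* stood first with 20.8 ± 1.046 CPM per kb (SD, n = 3), followed by *Stat3* with 13.2 ± 0.245, *Stat5b* with 12.3 ± 0.505, *Stat4* with 10.2 ± 0.811 and *Stat5a* with 9.21 ± 1.07. On this scale the inhibitors came after all STAT genes, with *Socs1* at 5.31 ± 0.398 CPM per kb, *Socs3* at 3.61 ± 1.04 and *Cish* at 0.325 ± 0.177. Of the neighbors in this order, *Stat4* and *Stat5a* overlapped between mice and the others did not. In the BCL6-insufficient mice *Stat6* was again first with 20.4 ± 3.13 CPM per kb (SD, n = 3), and *Stat4* was second with 11.9 ± 0.994, beside *Stat3* with 11.6 ± 0.388. *Stat5b* had 9.68 ± 0.926 CPM per kb there, *Stat5a* 8.48 ± 1.62, *Socs1* 3.66 ± 0.544, *Socs3* 2.96 ± 0.951 and *Cish* 0.532 ± 0.259. In this genotype *Stat4* and *Stat3* overlapped between mice, as did *Stat5b* and *Stat5a*, and *Socs1* and *Socs3*. With the TPM values the authors deposited, 4 of the 9 genes took another rank in the wild-type mice and 7 in the BCL6-insufficient mice, and *Socs3* moved from rank 7 to rank 3 in both. On that scale the inhibitors no longer followed all STAT genes: in the wild-type mice *Socs3* had a mean TPM of 20.1 and *Socs1* of 14.7, against 14.5 for *Stat5a*, 3.90 for *Stat5b* and 1.73 for *Stat4*, and in the BCL6-insufficient mice *Stat4* moved from rank 2 to rank 8.

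**Figure D1:**
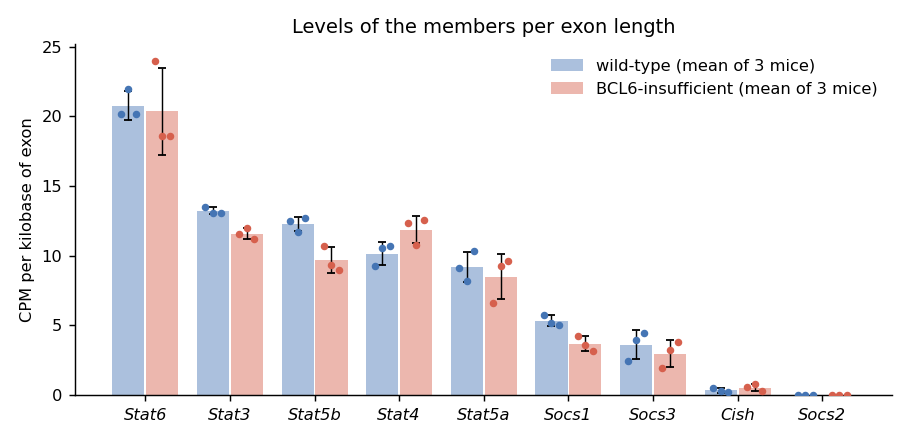
Level of each STAT and SOCS-family gene in CPM per kilobase of summed exon, as the mean of 3 mice per genotype (bars), the SD (lines) and the mice (points). *Stat6* leads in both genotypes at 20.8 and 20.4 CPM per kb, all STAT genes lie above the inhibitors, and *Socs2* is at 0.

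*Stat3*, the factor downstream of IL-6 and IL-21, lies at chr11:100885098-100939540 on the minus strand of GRCm38. It had 110.2, 114.2 and 106.8 CPM in BCL6-insufficient mice 1 to 3 and 128.7, 124.5 and 124.7 CPM in wild-type mice 1 to 3. All BCL6-insufficient mice were below all wild-type mice, with a narrow spread in both genotypes. Its log2 fold change was -0.19 (SE 0.10, 95% interval -0.40 to 0.02), and it did not pass edgeR's quasi-likelihood test (Benjamini-Hochberg adjusted p = 0.208). The exact two-sided permutation test over mice gave p = 0.1, the smallest that 3 against 3 mice allow. The last exon bases of *Stat3* and *Stat5a*, which lie on opposite strands, share 72 bases, 0.76% of the exon bases of *Stat3*, and the strand setting of the counting is not given in the sources used here.

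*Stat5b* and *Stat5a* encode the closely related factors downstream of IL-2, and *Stat5b* showed the largest difference relative to its error among the 8 tested genes. *Stat5b* lies at chr11:100780731-100850724 on the minus strand, next to *Stat5a* and *Stat3*. It had 59.4, 51.8 and 49.6 CPM in BCL6-insufficient mice 1 to 3 and 69.0, 64.9 and 70.2 CPM in wild-type mice 1 to 3. The genotypes did not overlap, and the highest BCL6-insufficient mouse, mouse 1, lay below the lowest wild-type mouse, mouse 2. The means were 53.6 ± 5.13 and 68.1 ± 2.80 CPM (SD, n = 3 each), a fold of 0.789. The log2 fold change was -0.34 (SE 0.12, 95% interval -0.60 to -0.09, adjusted p = 0.0567 in edgeR's quasi-likelihood test). The call depended on the choice of test and mice: the adjusted p was 0.0352 in DESeq2, 0.0348 in limma voom and 0.0427 in edgeR without BCL6-insufficient mouse 1, but in edgeR it was 0.0868 with upper-quartile scaling, 0.142 with GC and length trends removed and up to 0.147 with another mouse left out.

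*Stat5a*, at chr11:100859351-100885169 on the plus strand, had 47.2, 65.8 and 68.5 CPM in BCL6-insufficient mice 1 to 3 and 65.2, 58.3 and 73.5 CPM in wild-type mice 1 to 3. The genotypes overlapped, with BCL6-insufficient mouse 1 lowest of the 6. The log2 fold change of *Stat5a* was -0.12 (SE 0.14, 95% interval -0.42 to 0.17, adjusted p = 0.610 in edgeR's quasi-likelihood test), and without BCL6-insufficient mouse 1 it was 0.03. Because both genes have similar sequence, reads could be divided between them in ways the counts do not show, and their values are uncertain to that extent.

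*Stat4*, the factor downstream of IL-12, was the only STAT gene among the 5 with a higher mean in the BCL6-insufficient mice. It lies at chr1:51987148-52107189 on the plus strand and had 47.8, 41.5 and 48.5 CPM in BCL6-insufficient mice 1 to 3 against 35.7, 40.8 and 41.4 CPM in wild-type mice 1 to 3. The genotypes did not overlap, but BCL6-insufficient mouse 2 and wild-type mouse 3 were almost level. On the log2 scale the difference was 0.22 (SE 0.14, 95% interval -0.06 to 0.51, adjusted p = 0.293 in edgeR's quasi-likelihood test). The annotation places 26.7% of the exon bases of *Stat4* also in *Gm28177* on the same strand, which itself had at most 0.150 CPM in any mouse. How reads in shared bases were counted is not given in the sources used here. The low count of *Gm28177* therefore does not show that *Stat4* lost no reads there. The level of *Stat4* per kilobase, which divides by all its exon bases, is uncertain to that extent.

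*Stat6*, the factor downstream of IL-4, lies at chr10:127642986-127660957 on the plus strand. It had 105.6, 81.8 and 81.7 CPM in BCL6-insufficient mice 1 to 3 and 88.7, 96.8 and 88.9 CPM in wild-type mice 1 to 3. BCL6-insufficient mouse 1 was the highest and the other two of its genotype were the lowest of all mice, so the genotypes overlapped. Its log2 fold change was -0.03 (SE 0.12, 95% interval -0.27 to 0.22, adjusted p = 0.912 in edgeR's quasi-likelihood test), and its sign turned under 8 of 22 other settings.

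**Figure D2:**
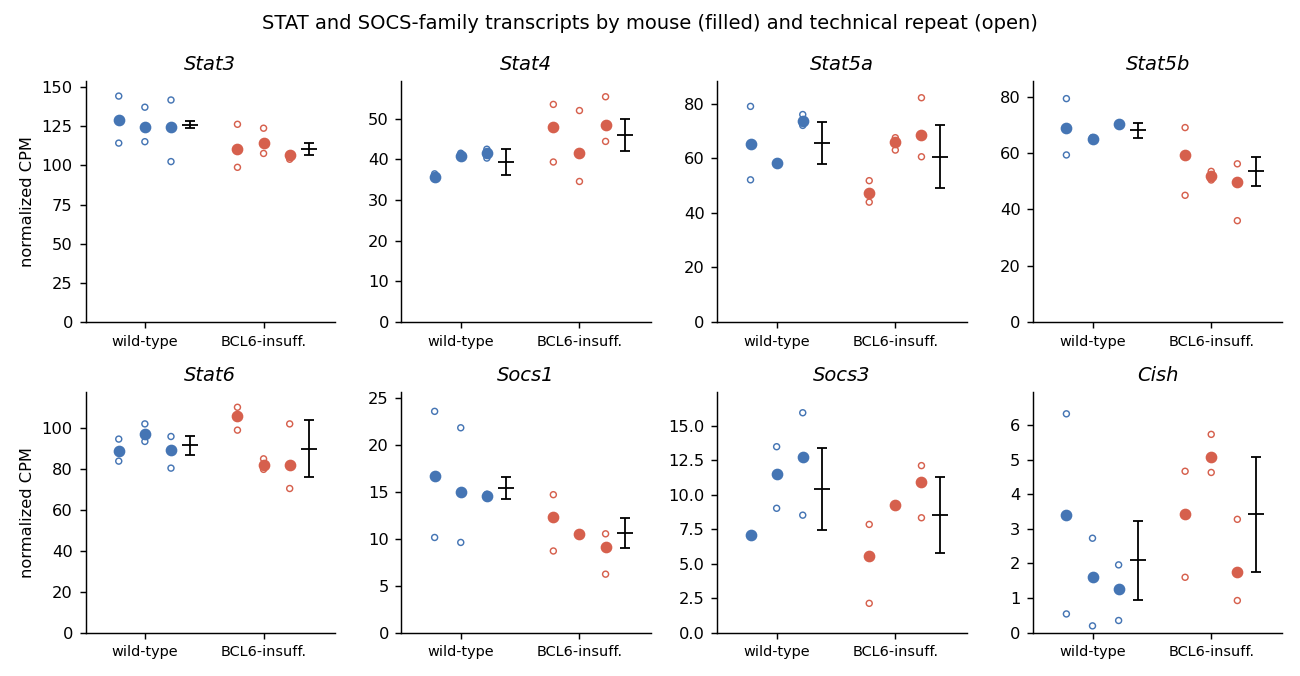
Normalized CPM of the 8 tested genes in each mouse (filled points), in each technical repeat (open points) and as mean ± SD of 3 mice (lines), with a separate axis from 0 for each gene. *Stat3*, *Stat5b* and *Socs1* have all BCL6-insufficient mice below all wild-type mice and *Stat4* has the reverse, while single repeats of *Socs1*, *Socs3* and *Cish* spread over much of the range.

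*Socs1*, an inhibitor that binds and blocks JAK kinases, had the largest fitted decrease of the 8 genes. It lies at chr16:10782240-10785536 on the minus strand. It had 12.3, 10.5 and 9.15 CPM in BCL6-insufficient mice 1 to 3 and 16.8, 15.02 and 14.6 CPM in wild-type mice 1 to 3. The genotypes did not overlap, and the means were 10.7 ± 1.58 and 15.5 ± 1.16 CPM (SD, n = 3 each), a fold of 0.692. On the log2 scale the difference was -0.53 (SE 0.22, 95% interval -0.99 to -0.07, adjusted p = 0.103 in edgeR's quasi-likelihood test). On the deposited TPM values the adjusted p of *Socs1* was 0.0375 in limma on log2(TPM + 1) and 0.0374 with a pseudocount of 0.1, but 0.0862 when all genes were kept. With GC and length trends removed from the counts, the log2 fold change of *Socs1* was -0.36 (adjusted p = 0.292 in edgeR's test). Between 21 and 127 counts per library stood behind these values.

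*Socs3*, the inhibitor that binds the IL-6 receptor chain gp130, lies at chr11:117966079-117970047 on the minus strand. It had 5.53, 9.27 and 10.9 CPM in BCL6-insufficient mice 1 to 3 and 7.05, 11.5 and 12.8 CPM in wild-type mice 1 to 3. The genotypes overlapped, and mouse 1 was the lowest in each. Its log2 fold change was -0.29 (SE 0.29, 95% interval -0.91 to 0.32, adjusted p = 0.545 in edgeR's quasi-likelihood test), an interval that spans decreases and increases. It was -0.05 without BCL6-insufficient mouse 1, -0.52 without wild-type mouse 1 and -0.13 with GC and length trends removed.

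*Cish*, whose product CIS is induced by STAT5 and binds cytokine receptors, lies at chr9:107296026-107302784 on the plus strand and was near the limit of detection. It had 3.42, 5.07 and 1.75 CPM in BCL6-insufficient mice 1 to 3 and 3.39, 1.6 and 1.28 CPM in wild-type mice 1 to 3. BCL6-insufficient mouse 2 was the highest and the genotypes overlapped. Its log2 fold change was 0.72 (SE 0.53, 95% interval -0.37 to 1.81, adjusted p = 0.381 in edgeR's quasi-likelihood test). The B cell markers *Cd74* and *Cd79a* were also highest in BCL6-insufficient mouse 2, at 52.3 and 10.6 CPM, followed by wild-type mouse 3, at 37.8 and 7.66 CPM, which had the lowest *Cish* of the 6 mice. Results without these 2 mice are given below as an alternative chosen after the values were seen. It rests on fewer mice, and over all genes it called 1080, against 2288 with all mice. For *Cish* that alternative removes the highest BCL6-insufficient and the lowest wild-type mouse, so a smaller difference (0.07 on the log2 scale) is fixed by the choice and carries no information on B cell RNA. With single mice left out the log2 fold change of *Cish* ran from 0.33, without BCL6-insufficient mouse 2, to 1.24, without wild-type mouse 1. An antisense gene, *Gm17041*, covers 7.46% of the exon bases of *Cish* and had 1.48 ± 1.01 and 0.779 ± 0.293 CPM (SD, n = 3 each), so without a stated strand setting part of the *Cish* counts may belong to it.

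*Socs2*, an inhibitor known for restraining growth hormone signals, lies at chr10:95385362-95417180 on the minus strand. It had 0 counts in all 12 libraries, among 70478161 counts in all. A count of 0 allows a level of up to 0.361 to 0.897 CPM in a single library and 0.0426 CPM over all libraries, where 3 counts were taken as the floor and counting error alone was considered. In the table, 2141 genes, or 8.72%, were likewise at 0 everywhere. No test of *Socs2* was possible, and at this depth no difference in *Socs2* was detectable.

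Across the family, 0 of the 8 tested genes passed edgeR's test after adjustment, where 18% of all tested genes did. DESeq2 and limma voom each called 1, which was *Stat5b*, beside 20.9% and 21.3% of all genes. At an unadjusted p under 0.05 edgeR had 2 of the 8, *Stat5b* and *Socs1*, beside 31% of all genes, and DESeq2 had 3, likewise beside 31%. The mice of the genotypes did not overlap for 4 of the 8, beside 34.4% of all genes, and 3 of these were lower in all BCL6-insufficient mice, beside 17% of all genes. The exact permutation test gave p = 0.1 for each of these 4, the smallest possible value. The median log2 fold change of the 8 was -0.16, and 6 of the 8 were fitted lower, while the median over all tested genes was 0.01.

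Each mouse had been sequenced in 2 technical repeats, which show how far the values depend on about 200 cells. For the STAT genes the repeats of a mouse differed by at most 1.38-fold (*Stat3*) to 1.55-fold (*Stat5b*), where 0.5 was added to each CPM. The inhibitors, which had fewer counts, spread more widely: *Socs1* had 23.6 and 10.2 CPM in the repeats of wild-type mouse 1, and *Socs3* had 2.13 and 7.85 CPM in those of BCL6-insufficient mouse 1. *Cish* had 6.32 and 0.544 CPM in wild-type mouse 1 and 0.2 and 2.73 CPM in wild-type mouse 2, where the lower value rests on 1 count.

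For *Socs1* and *Stat5b* the genotype difference was fitted larger in repeat 1 than in repeat 2. In repeat 1, *Socs1* had 8.72, 10.6 and 6.25 CPM in BCL6-insufficient mice 1 to 3 and 23.6, 21.9 and 14.4 CPM in wild-type mice 1 to 3. In repeat 2 it had 14.7, 10.3 and 10.6 CPM in the BCL6-insufficient mice and 10.2, 9.63 and 14.8 CPM in the wild-type mice. The genotypes lay apart in repeat 1 and overlapped in repeat 2. Fitted on repeat 1 alone the log2 fold change of *Socs1* was -1.20 (SE 0.34, adjusted p = 0.0195 in edgeR's quasi-likelihood test), and on repeat 2 alone it was 0.05 (SE 0.33, adjusted p = 0.950 in edgeR's quasi-likelihood test). *Stat5b* in repeat 1 had 45.02, 50.4 and 36.0 CPM in BCL6-insufficient mice 1 to 3 and 79.3, 65.5 and 70.5 CPM in wild-type mice 1 to 3, well apart. In repeat 2 it had 69.1, 53.5 and 56.2 CPM in the BCL6-insufficient mice and 59.3, 64.7 and 70.3 CPM in the wild-type mice, which overlapped. The log2 fold change of *Stat5b* was -0.70 on repeat 1 (SE 0.19, adjusted p = 0.0128 in edgeR's test) and -0.11 on repeat 2 (SE 0.17, adjusted p = 0.728 in edgeR's test).

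A test of the difference between repeats, chosen after these values were seen, gave a change of the genotype effect from repeat 1 to repeat 2 of 1.27 on the log2 scale for *Socs1* (SE 0.48, adjusted p = 0.547 in edgeR's quasi-likelihood test). For *Stat5b* it gave 0.59 (SE 0.24, adjusted p = 0.579 in edgeR's quasi-likelihood test). Over all genes 12 passed this test, or 0.0943%, and 960 had an unadjusted p under 0.05. *Socs1* and *Stat5b* were among the latter, and in edgeR's test none of the 8 genes passed after adjustment. *Stat3* gave nearly equal values from both repeats, -0.18 and -0.17 on the log2 scale, neither of which passed. The labels do not say that repeats of the same number share a sort, a plate or a day.

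**Figure D3:**
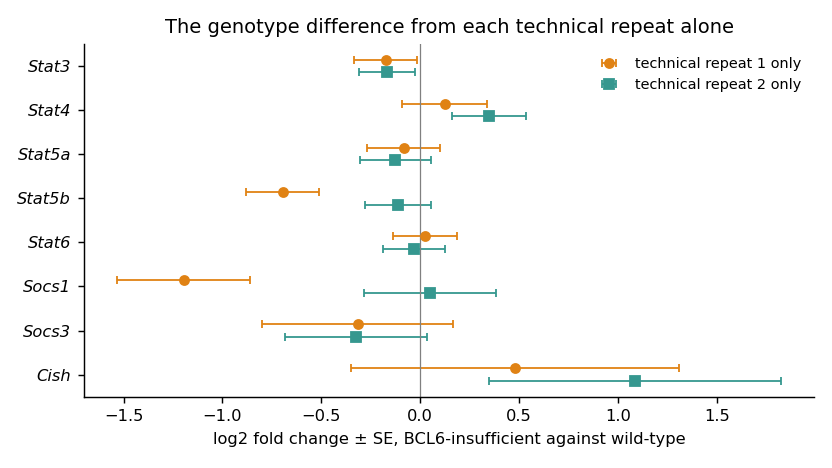
Log2 fold change (BCL6-insufficient against wild-type) ± SE of each tested gene, fitted on technical repeat 1 alone (circles) and on technical repeat 2 alone (squares), 3 mice per genotype each. *Socs1* goes from -1.20 to 0.05 and *Stat5b* from -0.70 to -0.11, while *Stat3* stays at -0.18 and -0.17.

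The rest of the pathway was described from lists of JAK kinases with other STAT and SOCS genes, further regulators, receptors, ligands and STAT target genes, 93 genes in the table and 71 tested. Of these, 10 passed edgeR's test, 4 higher and 6 lower in the BCL6-insufficient mice, beside the 18% of all genes, and without wild-type mouse 1 the number was 6. Among 11 kinases and other STAT and SOCS genes, 1 was higher and 1 lower, with a median log2 fold change of -0.01. *Jak3*, the kinase bound to the common gamma chain of the receptors for IL-2, IL-4 and IL-21, had 38.6, 37.1 and 41.1 CPM in BCL6-insufficient mice 1 to 3 and 60.4, 63.5 and 69.6 CPM in wild-type mice 1 to 3. It fell by 0.73 on the log2 scale (SE 0.13, adjusted p = 0.000413 in edgeR's quasi-likelihood test), the genotypes lay far apart, and it was called under all 22 other settings tried. *Jak2*, the kinase of the IL-12 and interferon gamma receptors among others, had 56.2, 69.5 and 51.1 CPM in BCL6-insufficient mice 1 to 3 and 39.3, 41.8 and 34.4 CPM in wild-type mice 1 to 3. It rose by 0.62 on the log2 scale (SE 0.14, adjusted p = 0.00414 in edgeR's quasi-likelihood test), without overlap. The call on *Jak2* was lost on repeat 1 alone (adjusted p = 0.0588 in edgeR's test), in limma on TPM (0.139 to 0.294) and without the 2 mice named beside *Cish* (log2 fold change 0.40, 0.147). *Jak1* (log2 fold change -0.07), *Tyk2* (-0.12) and *Stat2* (0.00) did not pass.

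Among 20 receptor genes tested, 3 were lower, with a median log2 fold change of -0.13. *Il21r*, the receptor chain for IL-21, had 53.6, 58.8 and 40.4 CPM in BCL6-insufficient mice 1 to 3 and 96.1, 79.1 and 81.5 CPM in wild-type mice 1 to 3. It fell by 0.75 on the log2 scale (SE 0.14, adjusted p = 0.000590 in edgeR's quasi-likelihood test), with no overlap, and it was called without each mouse in turn but not on repeat 1 alone (adjusted p = 0.0640 in edgeR's test) or in limma on the TPM of all genes (0.0824). *Il6ra*, the IL-6-binding chain, had 101.6, 111.2 and 94.2 CPM in BCL6-insufficient mice 1 to 3 and 144, 129.6 and 124.8 CPM in wild-type mice 1 to 3. It fell by 0.38 on the log2 scale (SE 0.11, adjusted p = 0.0173 in edgeR's quasi-likelihood test), with no overlap, and the call was lost when BCL6-insufficient mouse 3 (adjusted p = 0.0596 in edgeR's test) or wild-type mouse 1 (0.0886) was left out. On repeat 2 alone the log2 fold change of *Il6ra* was -0.19 (adjusted p = 0.468 in edgeR's test), and in limma on TPM the adjusted p was 0.0812 to 0.131. *Crlf2*, the receptor chain for TSLP, fell by 0.76 (SE 0.26, adjusted p = 0.0480 in edgeR's test), a call that was lost when any mouse other than BCL6-insufficient mouse 1 was left out, with adjusted p of up to 0.183 in edgeR's test, and with GC and length trends removed (-0.49, adjusted p = 0.219). Without BCL6-insufficient mouse 1 the log2 fold change of *Crlf2* was -1.23, on repeat 2 alone it was -0.46 (adjusted p = 0.405 in edgeR's test), and the call was also lost with upper-quartile scaling (0.0584), on repeat 1 alone (0.0507), in limma on TPM (0.0852 to 0.214) and without the 2 mice named beside *Cish* (0.293). Their partner chains did not pass, with log2 fold changes of 0.11 for *Il6st*, the gp130 gene that pairs with *Il6ra*, 0.16 for *Il2rg*, the common gamma chain gene that pairs with *Il21r*, and 0.36 for *Il7r*, which pairs with *Crlf2*.

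Among 5 ligand genes tested, 1 was higher. *Il4*, a Tfh cytokine that acts through STAT6, had 77.6, 59.5 and 59.8 CPM in BCL6-insufficient mice 1 to 3 and 42.5, 60.4 and 38.2 CPM in wild-type mice 1 to 3. It rose by 0.48 on the log2 scale (SE 0.16, adjusted p = 0.0353 in edgeR's quasi-likelihood test), although wild-type mouse 2 lay above BCL6-insufficient mice 2 and 3. The call on *Il4* was lost without BCL6-insufficient mouse 1, wild-type mouse 1 or wild-type mouse 3, with adjusted p of up to 0.203 in edgeR's test, and with GC and length trends removed (log2 fold change 0.33, adjusted p = 0.173). It was also lost on repeat 1 alone (0.40, adjusted p = 0.259 in edgeR's test), in limma on TPM (0.152 to 0.290) and without the 2 mice named beside *Cish* (0.165). *Il21*, the cytokine that signals to B cells and to Tfh cells through STAT3, had a log2 fold change of -0.17 (adjusted p = 0.637 in edgeR's test).

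Among 22 STAT target genes tested, 2 were higher and 1 lower, with a median log2 fold change of 0.03. *Maf*, a transcription factor of Tfh cells, had 81.8, 71.8 and 69.8 CPM in BCL6-insufficient mice 1 to 3 and 42.5, 56.0 and 35.5 CPM in wild-type mice 1 to 3. It rose by 0.74 on the log2 scale (SE 0.15, adjusted p = 0.00115 in edgeR's quasi-likelihood test), without overlap, and was also called with each mouse left out, but not on repeat 1 alone (adjusted p = 0.0800 in edgeR's test) or in limma on TPM (0.0759 to 0.157). *Irf4*, a factor that works with STAT3 at IL-21 targets, rose by 0.70 (SE 0.18, adjusted p = 0.00947 in edgeR's test), with BCL6-insufficient mouse 1 far above the others at 74.8 CPM, and the call was lost without that mouse (log2 fold change 0.40, adjusted p = 0.140) or wild-type mouse 3 (0.0555). It was also lost on repeat 2 alone (0.43, adjusted p = 0.168 in edgeR's test) and in limma on TPM (0.184 to 0.355). *Bcl2l1*, which encodes the survival protein BCL-XL, fell by 0.73 (SE 0.21, adjusted p = 0.0167 in edgeR's test), a call lost without BCL6-insufficient mouse 2, BCL6-insufficient mouse 3 or wild-type mouse 1, with adjusted p of up to 0.125 in edgeR's test. The *Bcl2l1* call was lost as well on repeat 1 alone (adjusted p = 0.0620 in edgeR's test), on repeat 2 alone (0.117) and in limma on TPM (0.0846 to 0.200). Without the 2 mice named beside *Cish* it was also lost (adjusted p = 0.0744 in edgeR's test), at a log2 fold change of -0.72. Among 13 further regulators tested, *Stam2*, which encodes an adaptor that binds JAK kinases, was the one that passed. It fell by 0.89 (SE 0.21, adjusted p = 0.00518 in edgeR's test), a call that was lost on repeat 1 alone (0.0820) and in limma on TPM (0.0591 to 0.201). Without the 2 mice named beside *Cish* the *Stam2* call was also lost (adjusted p = 0.0501 in edgeR's test), at a log2 fold change of -0.89. Known targets of STAT5 and STAT3 such as *Pim1* (0.25), *Bcl3* (0.26) and *Myc* (0.16) had log2 fold changes that did not pass. Other genes of the target list leaned lower and did not pass either, such as *Ccnd3* (-0.27), *Junb* (-0.29) and *Ccnd2* (-0.29). Of the 22 target genes tested, 10 were fitted lower.

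**Figure D4:**
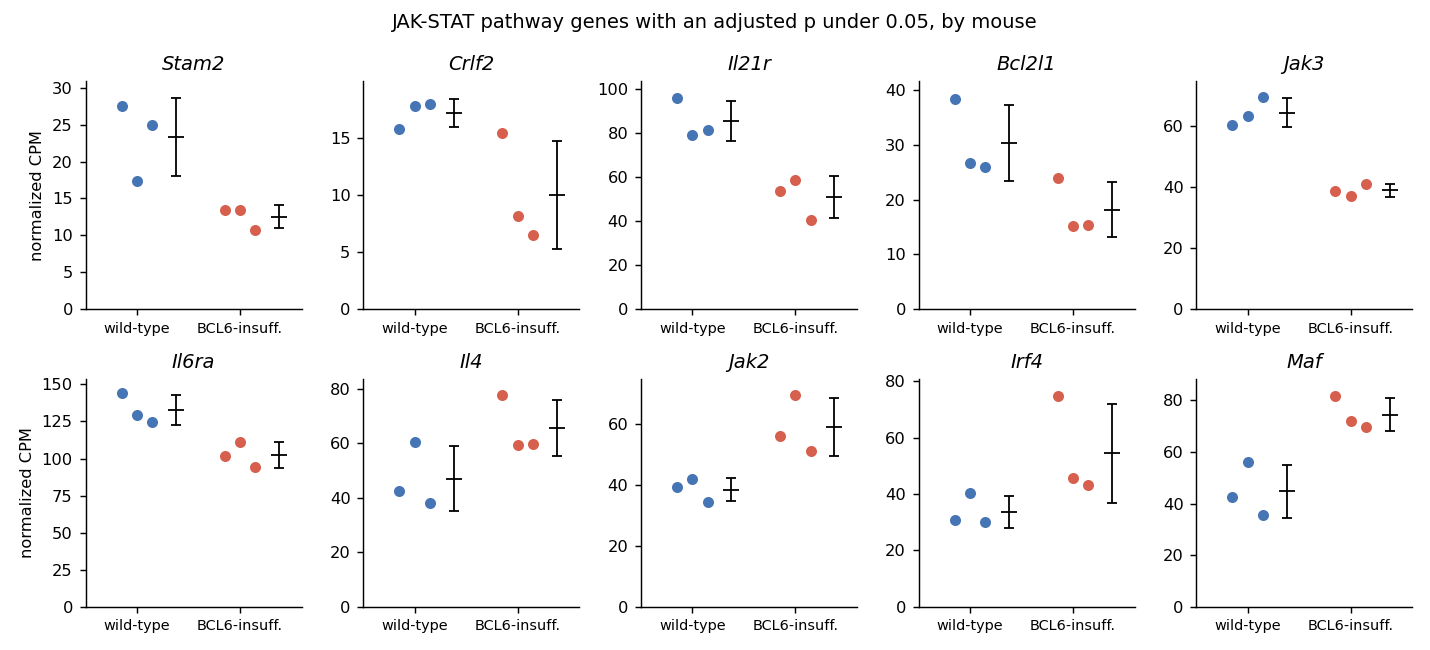
Normalized CPM by mouse (points) and mean ± SD of 3 mice (lines) for the 10 pathway genes that edgeR's test called, with a separate axis from 0 for each gene. The genotypes lie apart in all but *Il4*, where wild-type mouse 2 reaches 60.4 CPM, and the *Jak3* mice lie at 37.1 to 41.1 and 60.4 to 69.6 CPM.

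**Figure D5:**
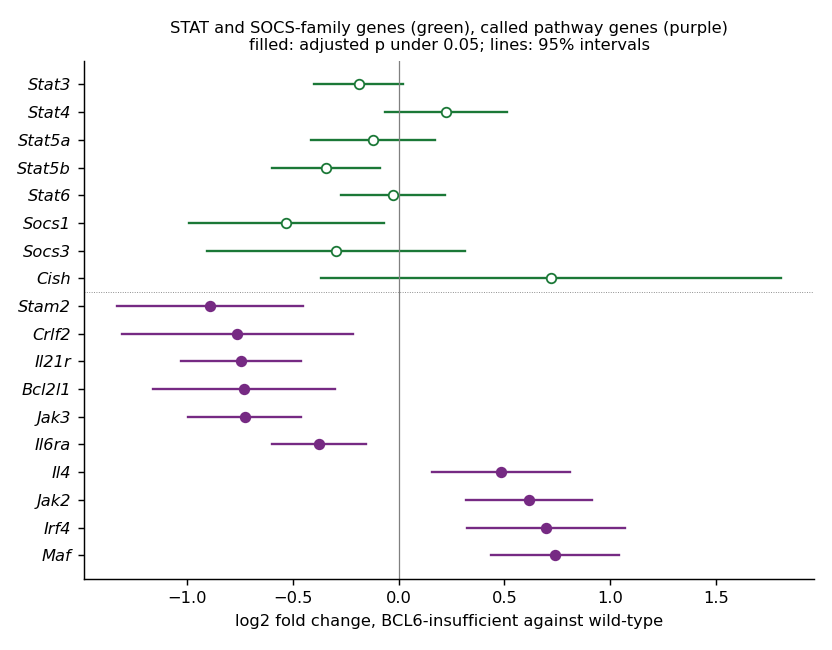
Log2 fold change (BCL6-insufficient against wild-type) with its 95% interval for the 8 tested STAT and SOCS-family genes (green) and the 10 called pathway genes (purple), filled where the adjusted p is under 0.05. All green points are open, the intervals of *Stat5b* and *Socs1* lie below 0, and that of *Cish* runs from -0.37 to 1.81.

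The genes whose levels ran most like *Stat5b*, the family member of smallest p, over the 12 libraries were *Ube2j1* (Pearson r = 0.941 of log2 CPM), *Safb* (r = 0.913) and *Plekhh3* (r = 0.913), out of 12718 genes compared. The libraries share 6 mice and 2 genotypes, and the values are a description only. In edgeR's test between genotypes none of the 3 passed, with adjusted p of 0.197, 0.0844 and 0.261.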

How the data were processed

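Messenger RNA of sorted Tfh cells was sequenced in 12 libraries from 6 recipient mice. The authors checked the reads, aligned them to GRCm38 (mm10) with HISAT2 2.2.1, and deposited HTSeq gene counts that were not normalized, together with TPM values for the same libraries, which were used here as an alternative only. The annotation release and the strand setting are not given in the sources used here.

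Counts of the repeats of a mouse were summed and filtered with filterByExpr. Mice were compared by the quasi-likelihood test of edgeR 4.0.16 (R 4.3.3) with TMM scaling, and p-values were adjusted by Benjamini-Hochberg over all tested genes. The SE is the absolute log2 fold change over the square root of F. CPM carry the TMM scaling. Single genes were also compared by an exact permutation test over mice. No sample was dropped or imputed, and 0 columns were left unmapped. Gene positions, overlaps and exon lengths came from GENCODE M21 (GRCm38), matched by symbol.

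Named were all 9 family genes, *Bcl6*, in each pathway list up to 4 genes per direction of smallest adjusted p under 0.05, and the 3 genes most correlated with the family member of smallest p. A few pathway genes that did not pass (*Jak1*, *Tyk2*, *Stat2*, *Il6st*, *Il2rg*, *Il7r*, *Il21*, *Pim1*, *Bcl3*, *Myc*, *Ccnd3*, *Junb* and *Ccnd2*) were named after their values were seen. The family and all lists were chosen with earlier results of these data known. Alternatives were DESeq2 1.42.0, limma voom and limma on log2 TPM (limma 3.58.1), other scalings and filters, each repeat alone, a replicate block, removal of GC and length trends (mgcv 1.9.3) and leaving out each mouse. The fit was tested on simulated data with 200 genes changed 2-fold, of which edgeR recovered 69.5%. Unchanged genes made up 7.33% of the calls in edgeR, 11.3% in DESeq2 and 15.1% in limma voom. With a length trend of chosen size added between genotypes, edgeR made 2200 calls, 93.5% of them of unchanged genes. With that trend removed the share was 6.87%. Since reads carried no molecular identifiers and PCR copies are counted again, limits from counts cover counting error only.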

Additional observations from a re-analysis of the deposited data

How the results depend on the processing

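Of the 8 tested STAT and SOCS-family genes, 0 were called in edgeR's test, 1 in each of DESeq2, limma voom, edgeR with at least 10 counts in every library, limma on log2(TPM + 1) and on log2(TPM + 0.1), 2 on repeat 1 alone, and 0 to 1 with 1 mouse removed. The sign of *Stat6* turned with upper-quartile scaling (0.0077), repeat 1 alone (0.0239), GC and length trends removed (0.0702), the replicate block with these trends removed (0.0616) and without the mice of highest B cell marker sum in each genotype (0.0156). With 1 mouse removed the log2 fold change of *Stat6* ran from -0.163 to 0.0359, above 0 without BCL6-insufficient mouse 2 or 3 or wild-type mouse 2. That of *Stat5a* ran from -0.222 to 0.0294, above 0 without BCL6-insufficient mouse 1, and that of *Socs1* was 0.0512 on repeat 2 alone. *Cish* could not be tested with at least 10 counts in every library. The 10 pathway calls became 4 on repeat 1, 6 on repeat 2, 3 on log2(TPM + 1), 3 on log2(TPM + 0.1), 1 on log2(TPM + 1) over all genes, 5 without the mice of highest B cell marker sum and 6 to 11 without 1 mouse. The 2288 calls over all genes became 1059, 1446, 1305, 1260, 221, 1080 and 1424 to 1972 in the same order. Of the 2288, 1166 were higher and 1122 lower, against 1331 and 957 with upper-quartile scaling, 390 and 915 on log2(TPM + 1), 374 and 886 on log2(TPM + 0.1), and 78 and 143 on log2(TPM + 1) over all genes. The median over all genes moved from 0.01 to -0.11 on log2(TPM + 0.1). The deposited TPM changed the rank of 7 genes in the BCL6-insufficient and 4 in the wild-type mice. The cause of these changes was not tested.

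Mice of the same number in both genotypes correlated by 0.0852, -0.0283 and 0.0247 in their deviations, so the numbers were not taken as pairs. A replicate block called 1 family gene, *Stat5b* (log2 fold change -0.35, adjusted p = 0.0466 in edgeR's test), and 2579 genes in all. With GC and length trends also removed it called 0 family genes, with *Stat5b* at -0.27 (adjusted p = 0.129 in edgeR's test).

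Low counts limit *Socs1*, *Socs3* and *Cish*, and with 3 mice per genotype the exact permutation test cannot go below 0.1. By a binomial test at an unadjusted p under 0.05, the repeats of some mice also differed beyond counting error. This held in 3 mice for *Socs1*, 3 for *Socs3*, 5 for *Cish*, 2 for *Stat6* and 3 for each other STAT gene.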
